A study of Mus musculus with 11 samples.

Results

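Cytosolic ribosomal protein genes were followed in 4T1 mammary tumours, and comprised the 81 of 17181 genes in the deposited table whose symbol follows the naming of these proteins (Rps or Rpl with a number, Rplp0 to Rplp2, and Rpsa). They fall into 76 main genes, 30 of the small and 46 of the large subunit, and 5 paralogues, Rpl39l, Rps27l, Rpl3l, Rpl6l and Rpl32l. Ribosomal proteins outside this naming (Fau, Rps3a1, Rpl36al and Rpl22l1), Rpl7l1, which is named after Rpl7, and the ribosome-bound scaffold Rack1 are described beside them. The 4T1 line, labelled wild type and epithelial, derives from a mouse mammary carcinoma and serves in models of triple-negative disease. It was injected subcutaneously into each flank, treatment started at a tumour volume of about 100 mm3, and tumours were taken after 12 days. The combination group (n = 3 tumours) received palbociclib at 30 mg/kg per day by mouth together with intraperitoneal OPG-Fc. OPG-Fc was given at 10 mg/kg per dose, with 3 doses per week. The palbociclib group received palbociclib alone at the same dose (n = 3), the OPG-Fc group OPG-Fc alone at the same dose (n = 3), and the vehicle group sodium lactate, corn oil and DMSO (n = 2), although its titles say untreated. Palbociclib is an inhibitor of the cell cycle kinases CDK4 and CDK6, and OPG-Fc is a decoy receptor for RANKL. The submitters' design text names NSG mice as hosts, a strain without mature lymphocytes, whereas the series title calls the model syngeneic. The labels give neither animal ages nor which tumours grew in the same animal, so a p-value here reflects the spread among these tumours only. The first number in the column names is the same for combination replicates 1 and 2 and for OPG-Fc replicates 2 and 3, and its meaning is not given.

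Ribosomal proteins form, with ribosomal RNA, the small subunit that decodes messenger RNA and the large subunit that joins amino acids. Their messenger RNAs are among the most abundant of a growing cell, and most start with a run of pyrimidines at the cap (the terminal oligopyrimidine tract) that couples their translation to the kinase mTOR through Larp1. Subunits are assembled in the nucleolus, and proteins left over when assembly fails can bind Mdm2 and stabilise p53.

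RefSeq promoter windows (build GRCm38.p6) are shown for both tested paralogues with their main genes. They are also shown for main genes with a window at both ends of the fold change order described further on. Rpl36, which had the largest fold change, matched no window. Each runs 5′ to 3′ on the strand of the gene, from 60 bases before the annotated start to 20 bases after it, 80 bases in all. Capitals mark the letters CTTTC, a stretch of pyrimidines, and CCGGAAG, the core letters bound by ETS factors, or their reverse complements GAAAG and CTTCCGG.
Rpl39l (chr16:10170168-10170247, plus strand): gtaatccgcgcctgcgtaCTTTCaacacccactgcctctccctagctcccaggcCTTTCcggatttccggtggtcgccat
Rpl39 (chrX:37085203-37085282, minus strand): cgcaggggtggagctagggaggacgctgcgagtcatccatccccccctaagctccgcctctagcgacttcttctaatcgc
Rps27l (chr9:66946026-66946105, plus strand): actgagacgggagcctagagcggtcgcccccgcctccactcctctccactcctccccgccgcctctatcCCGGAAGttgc
Rps27 (chr3:90213629-90213708, minus strand): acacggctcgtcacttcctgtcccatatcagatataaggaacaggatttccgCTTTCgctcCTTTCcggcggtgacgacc
Rps21 (chr2:180257319-180257398, plus strand): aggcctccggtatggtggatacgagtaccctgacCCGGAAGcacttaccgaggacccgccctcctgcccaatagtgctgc
Rps18 (chr17:33955646-33955725, minus strand): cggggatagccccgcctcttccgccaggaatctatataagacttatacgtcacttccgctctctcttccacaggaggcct
Rpl26 (chr11:68901506-68901585, plus strand): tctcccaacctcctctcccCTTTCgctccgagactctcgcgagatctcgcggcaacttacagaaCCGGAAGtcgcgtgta
Rpl10 (chrX:74270756-74270835, plus strand): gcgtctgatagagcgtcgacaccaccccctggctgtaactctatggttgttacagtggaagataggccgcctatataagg
Rps6 (chr4:86857348-86857427, minus strand): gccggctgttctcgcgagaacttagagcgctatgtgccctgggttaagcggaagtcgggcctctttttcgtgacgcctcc
Rps4x (chrX:102189372-102189451, minus strand): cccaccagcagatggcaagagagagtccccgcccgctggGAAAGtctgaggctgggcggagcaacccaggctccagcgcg

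Of the 81 genes, 60 matched 72 such windows. CTTTC on the gene's strand was present in 34.7% of them, against 10.5% of the 32851 windows of all genes. CCGGAAG on either strand was present in 18.1% of them, against 4.76% of all windows. The 2 motifs can overlap by at most 1 letter, and a match is a description of the sequence only. Among the windows shown, Rpl26 held both sets of letters, and Rpl39, Rps18, Rpl10 and Rps6 held neither.

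The values are FPKM, in which the fragments of a gene are divided by its transcript length and by the size of the library. Levels are thus already per length, and a comparison between genes depends on the length used for each. These genes were among the most abundant in every tumour: 67 of the 76 main genes had a mean above 1000 FPKM over the 11 libraries, and the same number stood among the 100 genes with the highest mean. Rpl41, which encodes a very short basic protein of the large subunit, had the highest mean at 6786 FPKM. It was followed by Rps27, a zinc-finger protein of the small subunit, at 5915 FPKM, and by Rplp1, an acidic protein of the stalk that recruits elongation factors, at 4994 FPKM. The lowest main genes were Rps15a at 120 FPKM, Rpl22 at 221 FPKM and Rps20 at 282 FPKM. Their annotated transcripts were the longest of the main genes, at 5130, 2048 and 3706 bases, against a median of 771 bases over the members. The part of length in these low levels was not tested. Ribosomal protein genes have many processed pseudogenes, and reads shared with them may have been split, so the level of a single member is uncertain. The paralogues were far lower, except Rps27l: Rpl6l averaged 0.119 FPKM, Rpl3l 0.374 FPKM and Rpl32l 0.417 FPKM, and these 3 did not pass the filter of at least 1 FPKM in at least 2 libraries. The filter left 13074 genes, 78 of them ribosomal protein genes.

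One vehicle library differed from the rest in its markers. In vehicle replicate 2 the FPKM of 8 epithelial markers summed to 48.0, whereas the remaining 10 libraries held 2728 to 3987. Its 10 markers of B cells, T cells and lymph nodes summed to 6697 FPKM. OPG-Fc replicate 2 was next at 843 FPKM, and the remaining libraries held 10.1 to 45.5 FPKM. The epithelial markers did not overlap between tumours with palbociclib (3271 to 3987 FPKM) and tumours without it (48.0 to 3080 FPKM, and 2728 to 3080 FPKM without vehicle replicate 2), and were highest in palbociclib replicate 2 and combination replicate 3. With palbociclib, against without it, other summed markers ranged from 66.5 to 109 against 96.5 to 177 for 8 endothelial genes, from 687 to 1138 against 788 to 2963 for 8 fibroblast genes, from 105 to 1476 against 4.14 to 136 for 10 skin genes, from 63.5 to 735 against 87.5 to 2678 for 8 adipocyte genes, from 671 to 2104 against 1016 to 1838 for 8 macrophage genes, from 243 to 1642 against 245 to 1692 for 6 neutrophil genes, and from 122 to 265 against 199 to 289 for 6 proliferation genes. Endothelial, fibroblast, epithelial, adipocyte, macrophage, neutrophil and proliferation markers were all above 0 in every library, while up to 4 of the 10 skin genes and up to 3 of the 10 lymphoid genes were at 0 in a library. The part of these differences in the ribosomal protein values was not tested, and in bulk tissue a change in cell makeup and a change in RNA per cell cannot be told apart. Read depth is unknown.

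Ribosomal protein transcripts took a larger part of the library in each tumour given palbociclib than in each tumour without it. The 81 genes made up 26.4%, 28.6% and 33.5% of the summed FPKM in the combination tumours, and 26.9%, 32.1% and 27.0% in the palbociclib tumours. They made up 20.1%, 23.1% and 23.2% in the OPG-Fc tumours, and 21.1% and 21.0% in the vehicle tumours. The highest library was combination replicate 3 and the next palbociclib replicate 2, and the 6 libraries with palbociclib did not overlap the 5 without it. The group means were 29.5% ± 3.67 in the combination group (SD, n = 3), 28.7% ± 2.99 in the palbociclib group (SD, n = 3), 22.1% ± 1.79 in the OPG-Fc group (SD, n = 3) and 21.0% ± 0.0321 in the vehicle group (SD, n = 2). The combination and palbociclib groups overlapped, as did the OPG-Fc and vehicle groups. Pooled, the libraries with palbociclib averaged 29.1% ± 3.03 (SD, n = 6) and those without it 21.7% ± 1.40 (SD, n = 5). Without vehicle replicate 2 the libraries without palbociclib averaged 21.9% ± 1.56 (SD, n = 4). The share is a description over genes chosen together and carries no test.

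**Figure D1:**
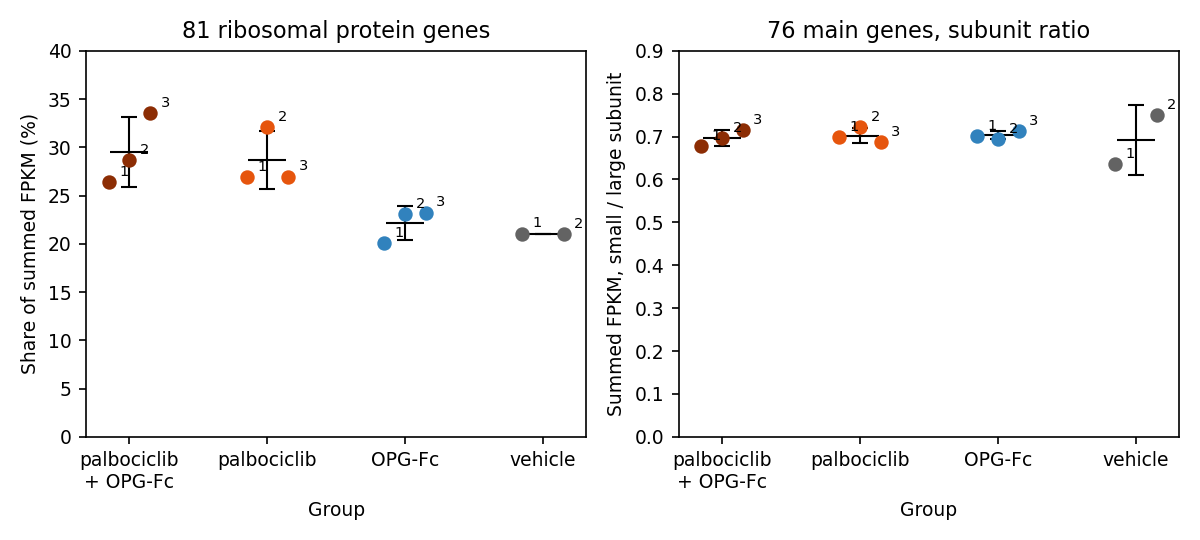
Left, share of the summed FPKM (%) taken by the 81 ribosomal protein genes in each tumour, by group; right, summed FPKM of the 30 small-subunit genes divided by that of the 46 large-subunit genes. Points are libraries with their replicate number, and bars give the mean and SD; the 6 libraries with palbociclib lie between 26.4% and 33.5%, above all 5 without it, while the subunit ratios of the groups overlap.

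The balance of the subunits overlapped between groups. The small-subunit sum divided by the large-subunit sum was 0.677 to 0.722 with palbociclib and 0.635 to 0.750 without it, and the widest spread was between the 2 vehicle tumours (0.635 and 0.750). Mitochondrial ribosomal protein genes (77 in the table), which encode the ribosome of that organelle, made up 0.538% to 0.649% of the summed FPKM with palbociclib and 0.513% to 0.561% without it, so that the groups overlapped. The 14 genes of the 20S core proteasome, another abundant complex, made up 0.479% to 0.521% with palbociclib and 0.429% to 0.493% without it, also with overlap. When each FPKM was multiplied by transcript length, which weights genes as in a count of fragments, the share of the cytosolic genes was 14.2% ± 2.84 in the combination group, 12.8% ± 2.15 in the palbociclib group and 9.04% ± 1.04 in the OPG-Fc group (SD, n = 3 each), and 8.56% ± 0.139 in the vehicle group (SD, n = 2).

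**Figure D2:**
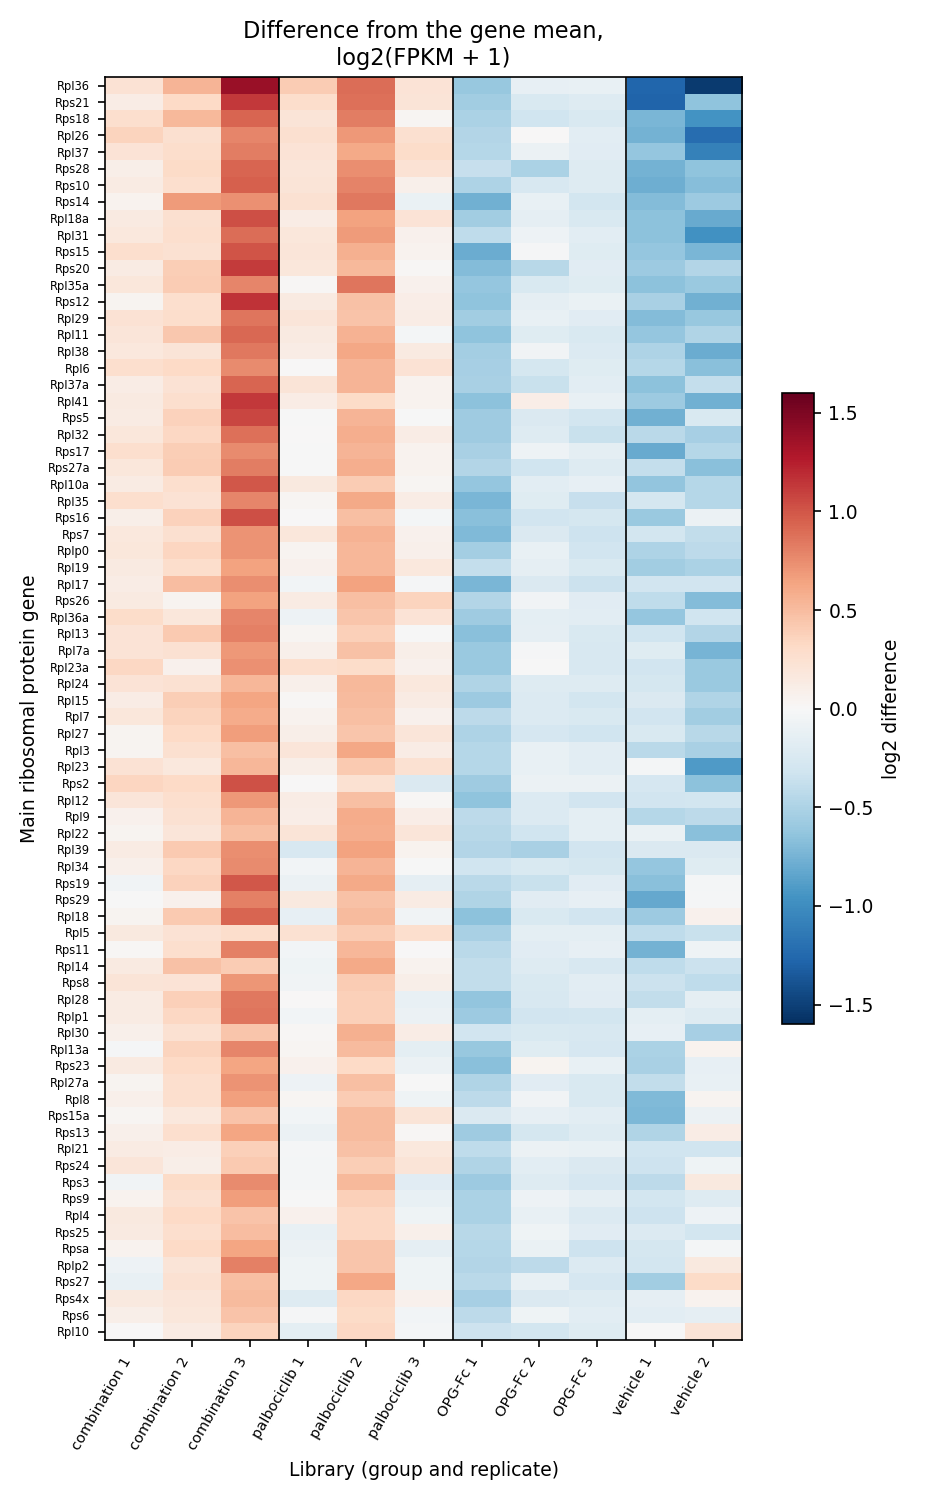
Difference of log2(FPKM + 1) from the mean of each gene over the 11 libraries, for the 76 main ribosomal protein genes (rows, ordered by the log2 fold change of palbociclib averaged over OPG-Fc) and the libraries (columns, by group). Combination replicate 3 and palbociclib replicate 2 are the highest columns, the OPG-Fc and vehicle columns are mostly below the mean, and Rpl10 at the bottom is the row with the smallest fold change.

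Averaged over OPG-Fc, that is, the mean of the combination and palbociclib groups minus the mean of the OPG-Fc and vehicle groups, 29 of the 78 tested ribosomal protein genes were higher with palbociclib and 0 were lower in limma (Benjamini-Hochberg adjusted p below 0.05 across the whole table). Over all 13074 genes 1.38% were called higher (180 genes) and 1.45% lower (190 genes), but this balance depended on scaling: it was 1.24% higher and 15.8% lower as TPM, and 1.2% higher and 3.2% lower when scaled to the other genes. No member was called when libraries that share a column-name number were averaged, and none with the replicate number as a block, though 75 had an unadjusted p under 0.05 in limma in each of these fits. The 29 comprised 8 small-subunit genes, 20 large-subunit main genes and the paralogue Rpl39l, with adjusted p between 0.0274 and 0.0498. All 78 log2 fold changes were above 0, with a median of 0.66 against -0.04 over all tested genes, and 76 of the 78 had an unadjusted p under 0.05, as did 14.2% of all genes in this direction. In the same fit 0 of 8 epithelial markers were called (3 had an unadjusted p under 0.05, all higher, and the median was 1.77, or 0.23 without vehicle replicate 2), 6 of 8 endothelial, 2 of 8 fibroblast and 2 of 8 macrophage markers were called lower, and their part in the result was not tested. Under quantile normalization, which forces 1 distribution of values on all libraries, the members' median was 0.15, 64 of 78 were above 0, and 7 were called higher and 1 lower. Rescaling to TPM shifted the median of all genes to -0.27, and the members' median was then 0.40. Scaling by the sum of the other genes shifted it to -0.14, with a members' median of 0.55.

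The number of calls turned on single libraries. It was 60 without vehicle replicate 1, a fit in which 23.4% of all genes were called higher and 29.6% lower. It was 18 without vehicle replicate 2, 7 without palbociclib replicate 2, 1 without combination replicate 1, and 0 without any 1 of the other 7 libraries (combination replicates 2 and 3, palbociclib replicates 1 and 3, and OPG-Fc replicates 1, 2 and 3). Of the 18 called without vehicle replicate 2, 14 were among the 29, and in that fit 1.63% of all genes were called higher. Of the called members named below, Rplp0, Rps27a, Rpl3, Rpl38, Rpl9, Rpl27 and Rpl7 were not among the 18. Over all genes, 1.39% were called higher without palbociclib replicate 2 and 0.0612% without combination replicate 1. In all 11 fits that left out a library, each of the 78 fold changes stayed above 0, and the members' median lay between 0.59 and 0.72. The summed FPKM of all genes was 651306 to 864670 with palbociclib and 576699 to 646150 without it, without overlap. FPKM were not scaled to a common total for the range counts here and below. The part of these totals in those counts was not tested. In the FPKM themselves, the level of 59 of the 78 members (75.6%) was higher in each of the 6 libraries with palbociclib than in any of the 5 without it, against 4.01% of all tested genes. Without vehicle replicate 2 the number was 65, against 4.36%.

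**Figure D3:**
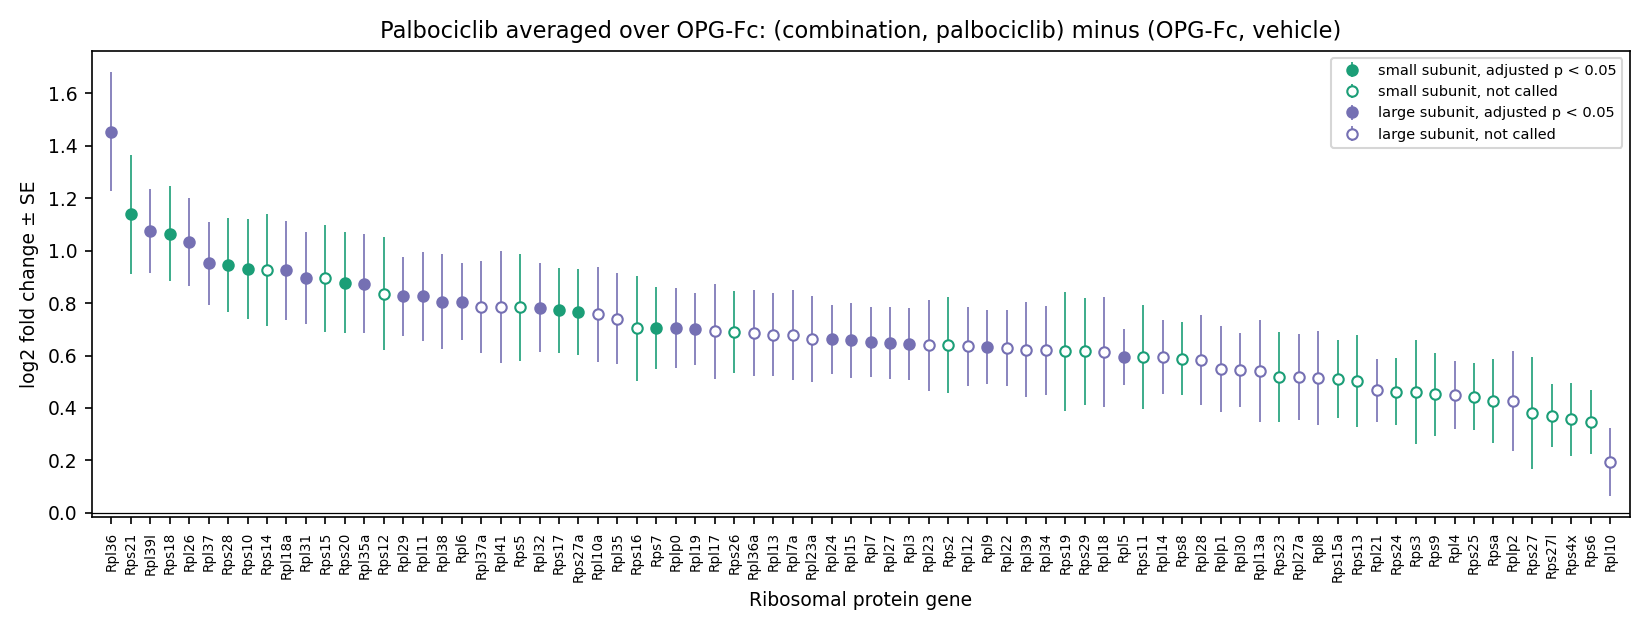
Log2 fold change with its SE for the 78 tested ribosomal protein genes, the mean of the combination and palbociclib groups minus the mean of the OPG-Fc and vehicle groups, on the log2(FPKM + 1) scale. Green marks the small and violet the large subunit, filled points have a limma adjusted p under 0.05; all points lie above 0, from 0.19 for Rpl10 to 1.45 for Rpl36.

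Rpl36, a protein of the large subunit, had the largest fold change. Its level was 2272, 2825 and 5034 FPKM in the combination tumours, 2569, 3595 and 2256 FPKM in the palbociclib tumours, 1275, 1770 and 1791 FPKM in the OPG-Fc tumours, and 801 and 668 FPKM in the vehicle tumours. The vehicle tumours were the lowest, and the OPG-Fc tumours lay between them and the tumours given palbociclib, without overlap. Its log2 fold change was 1.45 ± 0.23 (SE, limma adjusted p = 0.0299), and 1.39 ± 0.26 without vehicle replicate 2. Set against the mean log2 level of the 76 main genes in the same library, Rpl36 stood at -0.71 and -1.04 in the vehicle tumours, and between 0.01 and 0.19 in the OPG-Fc tumours.

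Rps21 and Rps18 followed among main genes. Rps21, a small-subunit protein, had 2830, 3250 and 5694 FPKM in the combination tumours, 3165, 4804 and 2996 FPKM in the palbociclib tumours, 1769, 2198 and 2261 FPKM in the OPG-Fc tumours, and 1070 and 1664 FPKM in the vehicle tumours. The tumours given palbociclib did not overlap the others, and the log2 fold change was 1.14 ± 0.23 (SE, limma adjusted p = 0.0469). Rps18, a protein of the small-subunit head, was at 5129, 6097 and 8081 FPKM in the combination tumours, 4892, 7478 and 4349 FPKM in the palbociclib tumours, 3003, 3395 and 3575 FPKM in the OPG-Fc tumours, and 2558 and 2184 FPKM in the vehicle tumours. Here too each tumour given palbociclib was above each without it, at a log2 fold change of 1.06 ± 0.18 (SE, limma adjusted p = 0.0386). The called members with the smallest fold changes were Rpl5 (0.59), Rpl9 (0.63), Rpl3 (0.64), Rpl27 (0.65) and Rpl7 (0.65).

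Rpl26, Rpl5 and Rpl11 connect ribosomes with p53: Rpl26 binds the p53 messenger RNA, and Rpl5 and Rpl11 bind Mdm2 as part of the particle that holds 5S RNA. Rpl26 had 4422, 4117 and 5906 FPKM in the combination tumours, 4094, 5565 and 4124 FPKM in the palbociclib tumours, 2497, 3450 and 3058 FPKM in the OPG-Fc tumours, and 2044 and 1473 FPKM in the vehicle tumours. The groups with and without palbociclib did not overlap, and the log2 fold change was 1.03 ± 0.17 (SE, limma adjusted p = 0.0344). Rpl5 had the smallest spread within groups of the 78 tested members (pooled SD of 0.12 on the log2 scale), at 1713, 1792 and 1869 FPKM in the combination tumours, 1818, 2023 and 1846 FPKM in the palbociclib tumours, 1073, 1373 and 1378 FPKM in the OPG-Fc tumours, and 1152 and 1197 FPKM in the vehicle tumours. The lowest tumour given palbociclib was thus above the highest without it, with a log2 fold change of 0.59 ± 0.11 (SE, limma adjusted p = 0.0415). Rpl11 ranged from 825 to 1598 FPKM with palbociclib and from 541 to 737 FPKM without it (log2 fold change 0.83 ± 0.17, limma adjusted p = 0.0481).

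The proteins of the stalk differed in how far they passed. Rplp0, which anchors the stalk to the large subunit, ranged from 2621 to 4178 FPKM with palbociclib and from 1748 to 2342 FPKM without it, and was called (log2 fold change 0.70 ± 0.15, limma adjusted p = 0.0481). Its partners Rplp1 (0.55 ± 0.16) and Rplp2 (0.43 ± 0.19) had limma adjusted p of 0.0757 and 0.147. Rplp2 had 3332 FPKM in vehicle replicate 2, above 3 of the 6 tumours given palbociclib. Whether the 3 fold changes differ from each other was not tested.

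In the small subunit, Rps27a, made as a fusion with ubiquitin, ranged from 2511 to 4433 FPKM with palbociclib and from 1583 to 2181 FPKM without it (log2 fold change 0.77 ± 0.16, limma adjusted p = 0.0481). Rps14, whose human gene lies in the region lost in the 5q- syndrome, had a log2 fold change of 0.93 ± 0.21 (limma adjusted p = 0.0528), and its ranges of 2083 to 4005 FPKM with palbociclib and 1316 to 2069 FPKM without it did not overlap. Rps19, mutated in human Diamond-Blackfan anaemia, had the largest spread within groups (0.41 on the log2 scale), ranged from 1470 to 3218 FPKM with palbociclib and from 1016 to 1591 FPKM without it, and was not called (0.62 ± 0.23, limma adjusted p = 0.107). Likewise not called were Rps3 (0.46, adjusted p = 0.140), Rpsa (0.43, adjusted p = 0.110) and Rps29 (0.62, adjusted p = 0.0892).

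In the large subunit, Rpl3, a protein near the peptidyl transferase centre, ranged from 1647 to 2449 FPKM with palbociclib and from 1118 to 1472 FPKM without it (log2 fold change 0.64 ± 0.14, limma adjusted p = 0.0481). Rpl37 (0.95 ± 0.16, adjusted p = 0.0381) and Rpl38 (0.81 ± 0.18, adjusted p = 0.0498), the protein whose loss alters Hox mRNA translation in mice, were called. Rpl41 (0.79 ± 0.21, adjusted p = 0.0655), Rpl39 (0.62 ± 0.18, adjusted p = 0.0722), Rpl22 (0.63 ± 0.14, adjusted p = 0.0528), Rpl4 (0.45 ± 0.13, adjusted p = 0.0696) and Rpl13a (0.54 ± 0.20, adjusted p = 0.102) were not. The within-group SD was 0.40 for Rpl36 and Rps21, close to that of Rps19, and 0.17 and 0.18 for Rps6 and Rpl21, the next smallest after Rpl5 among tested members. The single highest value of any member was Rpl41 in combination replicate 3, at 13880 FPKM, against 3739 to 7887 FPKM in the other 10 libraries.

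The smallest fold changes belonged to Rpl10, Rps6 and Rps4x. Rpl10, which is added late to the large subunit near the site of peptide bond formation, had 2539, 2766 and 3239 FPKM in the combination tumours, 2275, 3198 and 2482 FPKM in the palbociclib tumours, 2012, 2069 and 2215 FPKM in the OPG-Fc tumours, and 2520 and 2921 FPKM in the vehicle tumours. The vehicle tumours lay within the range of those given palbociclib, and the OPG-Fc tumours were the lowest. Its log2 fold change was 0.19 ± 0.13 (limma adjusted p = 0.294), and it turned negative under quantile normalization (-0.36), TPM (-0.06) and a correction for transcript length (-0.07, and -0.06 without vehicle replicate 2). Relative to the main genes of the same library, Rpl10 stood at 0.95 and 1.09 in the vehicle tumours, between 0.37 and 0.67 in the OPG-Fc tumours, and between 0.08 and 0.38 in the 6 tumours given palbociclib.

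Rps6, the substrate of the S6 kinases downstream of mTOR, ranged from 1261 to 1784 FPKM with palbociclib and from 977 to 1243 FPKM without it. These ranges did not overlap, yet the log2 fold change of 0.35 ± 0.12 did not pass (limma adjusted p = 0.0979), and it was -0.11 under quantile normalization. Rps4x, the X-linked form of a small-subunit protein, ranged from 1904 to 3122 FPKM with palbociclib and from 1520 to 2296 FPKM without it, with overlap (0.36 ± 0.14, limma adjusted p = 0.118; -0.16 under quantile normalization). Rps27 (0.38 ± 0.21, limma adjusted p = 0.221) had 7093 FPKM in vehicle replicate 2 and 3886 FPKM in vehicle replicate 1, and its fold change was 0.60 without vehicle replicate 2.

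The mix of members lay furthest from the mean of all 11 libraries in the vehicle tumours, which are only 2 of them. After each gene's mean over the libraries and the mean of each library were taken away, the SD of the main genes' log2 values was 0.24 and 0.35 in the vehicle tumours and 0.22 in combination replicate 3, against 0.07 to 0.14 in the other 8 libraries. Rpl26 stood at 0.64 and 0.10 relative to the main genes in the vehicle tumours, against 0.88 to 1.14 in the other 9, and Rpl37 at -1.14 and -1.67, against -1.01 to -0.77.

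In the comparisons of single groups, which share control libraries and are not independent of each other, no member was called in the fit of all 11 libraries. For the combination against vehicle, 0% of all genes were called in limma, and the members' median log2 fold change was 0.78. Of the 78 members, 69 were higher with an unadjusted p under 0.05 in limma, as were 15.3% of all genes. The ranges of 70 members lay wholly higher in the combination tumours, against 18% of all genes. The members ran from Rpl10 (0.06), Rps4x (0.32) and Rps27 (0.33) to Rps21 (1.49), Rpl39l (1.83) and Rpl36 (2.12). For palbociclib against vehicle, 0% of all genes were called, and the members' median was 0.64. Higher with an unadjusted p under 0.05 were 49 members and 13.6% of all genes. By range, 66 members lay wholly higher, against 16.4% of all genes. Here Rpl10 (-0.05), Rps4x (0.11) and Rplp2 (0.17) were lowest, and Rps21 (1.42), Rpl39l (1.55) and Rpl36 (1.91) highest. For the combination against OPG-Fc, 0.00765% of genes were called higher and 0.0918% lower, and the members' median was 0.68. Higher with an unadjusted p under 0.05 were 74 members and 6.68% of all genes. By range, all members but Rps27 lay wholly higher, 77 of 78, against 15.3% of all genes. The ends of this order were Rps27l (0.36), Rps15a (0.39) and Rpl21 (0.42), and Rps18 (0.93), Rps20 (0.99) and Rpl36 (1.00). Refitted without vehicle replicate 2, which changes the shared spread, 0.987% of genes were called higher and 1 member passed, Rpl6, a large-subunit protein (0.79 ± 0.19, limma adjusted p = 0.0496).

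Differences with OPG-Fc did not pass for any member in the fit of all 11 libraries. For OPG-Fc against vehicle, 0% of all genes were called in limma, and the members' median was 0.13. Unadjusted p were under 0.05 for 5 members, Rpl39l (1.23), Rpl36 (1.12), Rpl26 (0.78), Rpl37 (0.60) and Rpl31 (0.59), and for 7.6% of all genes in this direction. The lowest were Rpl10 (-0.37), Rplp2 (-0.30) and Rps4x (-0.28). By range, 14 lay wholly higher (12.7% of all genes did) and 4 wholly lower (8.57% of all genes did). For the combination against palbociclib, 0% of genes were called, the median was 0.19, and 1 member, the small-subunit gene Rps2, lay wholly higher, against 13.7% of all genes. Rps2 was also the single member with an unadjusted p under 0.05 (0.56 ± 0.24, limma adjusted p = 0.730), against 4.22% of all genes in this direction. Rpl28 (0.37) and Rplp1 (0.36) followed, and Rpl22 (-0.09), Rpl5 (-0.08) and Rpl3 (-0.05) were lowest. OPG-Fc averaged over palbociclib gave 0% of genes called and a median of 0.16. Unadjusted p were under 0.05 for 3 members, Rpl39l (0.75), Rpl36 (0.67) and Rpl26 (0.42), against 7.6% of all genes in this direction. Rpl10 (-0.13), Rps27 (-0.06) and Rplp2 (-0.05) were lowest. The interaction gave 0% of genes called, a median of 0.05 and 1 member with an unadjusted p under 0.05, Rpl39l (-0.95), against 3.12% of all genes in this direction. Rpl36 (-0.91) and Rpl26 (-0.71) came next, and Rplp1 (0.57), Rpl18 (0.51) and Rplp2 (0.51) were highest. Without vehicle replicate 2, Rpl39l was called for OPG-Fc averaged over palbociclib (0.82 ± 0.17, limma adjusted p = 0.0386), where 3.17% of all genes were called higher.

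Rpl39l, a paralogue of Rpl39 best known from male germ cells, had 5.89, 5.92 and 9.72 FPKM in the combination tumours, 5.53, 4.91 and 6.42 FPKM in the palbociclib tumours, 3.39, 4.65 and 4.93 FPKM in the OPG-Fc tumours, and 1.06 and 1.46 FPKM in the vehicle tumours. The vehicle tumours were lowest, and the OPG-Fc and palbociclib tumours overlapped. Averaged over OPG-Fc, its log2 fold change with palbociclib was 1.07 ± 0.16 (SE, limma adjusted p = 0.0274), the smallest adjusted p of any member. The interaction was -0.95 ± 0.32 (limma adjusted p = 0.647). The palbociclib difference was 0.60 in the presence of OPG-Fc (adjusted p = 0.264) and 1.55 in its absence (adjusted p = 0.147). Rpl39 itself had 3436, 4188 and 5236 FPKM in the combination tumours, 2618, 4903 and 3265 FPKM in the palbociclib tumours, 2250, 2180 and 2538 FPKM in the OPG-Fc tumours, and 2673 and 2666 FPKM in the vehicle tumours.

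Rps27l, a paralogue of Rps27 that p53 induces in human cells, had 278, 274 and 351 FPKM in the combination tumours, 229, 330 and 249 FPKM in the palbociclib tumours, 234, 234 and 231 FPKM in the OPG-Fc tumours, and 212 and 197 FPKM in the vehicle tumours. Palbociclib replicate 1 lay below the OPG-Fc tumours, and the log2 fold change averaged over OPG-Fc was 0.37 ± 0.12 (limma adjusted p = 0.0865). It was -0.08 with a length correction and without vehicle replicate 2. Rpl3l, the paralogue of Rpl3 known from striated muscle, had 0.64, 0.23 and 0.29 FPKM in the combination tumours, 0.40, 0.75 and 0.19 FPKM in the palbociclib tumours, 0.15, 0.59 and 0.77 FPKM in the OPG-Fc tumours, and 0.05 FPKM in both vehicle tumours. The 10 skeletal muscle markers summed to 99.3 to 457 FPKM with palbociclib, 61.4 to 402 FPKM in the OPG-Fc tumours and 9.12 to 34.7 FPKM in the vehicle tumours, and their part in the Rpl3l values was not tested. Rpl6l was listed at 0 in 4 of the 5 libraries without palbociclib, and Rpl32l did not exceed 0.93 FPKM.

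**Figure D4:**
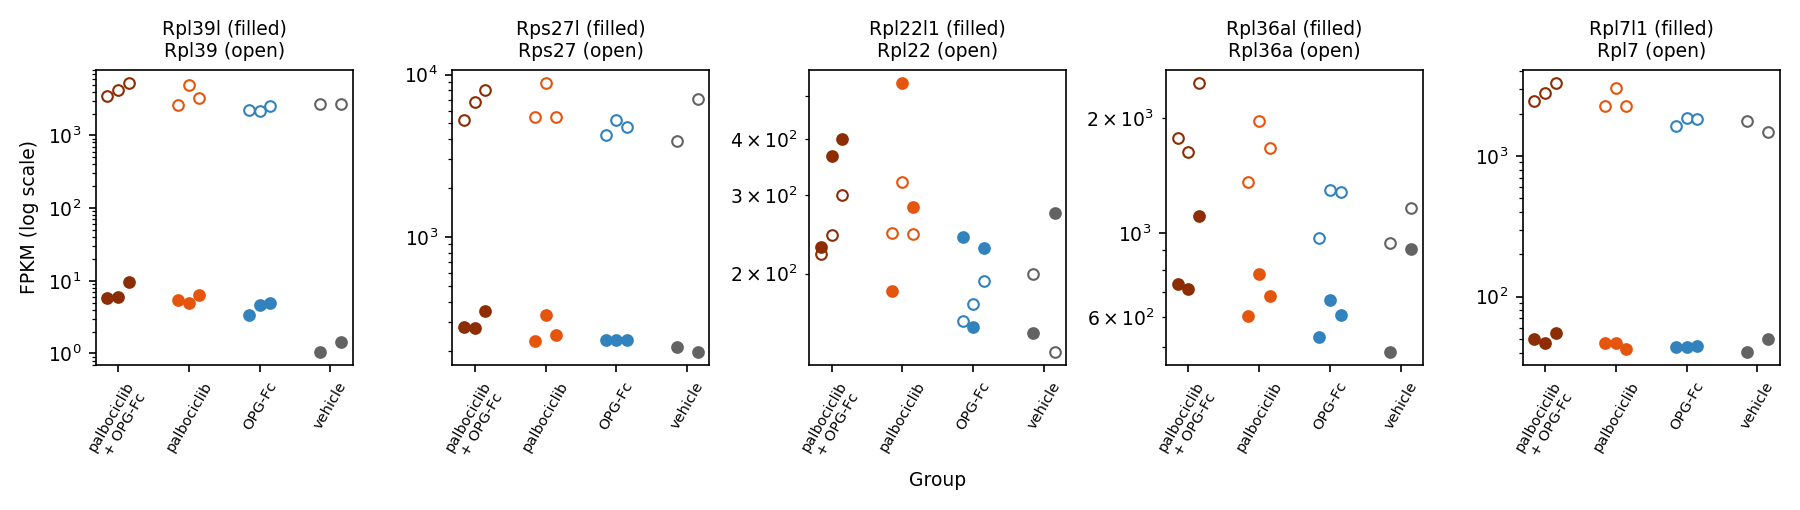
FPKM on a log scale of 5 paralogues (filled) and their main genes (open) in each tumour, by group. Rpl39l, Rps27l and Rpl7l1 lie far below their main genes in every tumour, Rpl22l1 and Rpl22 lie at like levels, and Rpl36al lies below Rpl36a.

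Each paralogue was set against its main gene as log2 of their ratio, over the 6 libraries with palbociclib and the 5 without it, with an exact two-sided permutation test adjusted over the 5 pairs. The smallest p this design allows is 0.00216. Rpl7l1, named for its likeness to Rpl7, showed the largest difference of the 5 pairs: it had 42.3 to 55.0 FPKM with palbociclib and 40.7 to 49.9 FPKM without it, while Rpl7 had 2258 to 3289 FPKM and 1477 to 1869 FPKM. Its ratio was 1.55% to 2.07% of Rpl7 with palbociclib and 2.31% to 3.38% without it, a difference of -0.54 in the mean log2 ratio (exact permutation p = 0.00216, adjusted p = 0.00541, lower in 6 of 6 libraries). Rpl36al had 39.6% to 44.8% of the Rpl36a level with palbociclib and 47.6% to 77.9% without it, a difference of -0.40 (exact permutation p = 0.00216, adjusted p = 0.00541). Without vehicle replicate 2 the differences were -0.45 and -0.28, with an adjusted exact permutation p of 0.0238 for both. By themselves neither Rpl7l1 (0.10 ± 0.09, limma adjusted p = 0.457) nor Rpl36al (0.26 ± 0.19, limma adjusted p = 0.339) passed in limma. Without vehicle replicate 2 their log2 fold changes were 0.17 and 0.48. The main genes Rpl7 and Rpl36a alone did not overlap between libraries with and without palbociclib. Their ratios can thus differ without any change of the paralogue, and these tests say nothing about the paralogue by itself. For the other pairs the differences were 0.31 for Rpl39l over Rpl39 (exact permutation p = 0.409, adjusted p = 0.682), -0.05 for Rps27l over Rps27 (p = 0.831, adjusted p = 0.991) and 0.01 for Rpl22l1 over Rpl22 (p = 0.991, adjusted p = 0.991), and the last 2 changed sign when single libraries were left out.

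The genes whose log2 level followed that of the tested paralogues most closely over the 11 libraries are given as a description, since all share the libraries. For Rpl39l these were Mrpl12 (Pearson r = 0.964), Rex1bd (0.957), Ndufaf6 (0.955), Abhd8 (0.948) and Fbxl15 (0.946), against a median r of 0.749 with the main ribosomal protein genes. For Rps27l they were Polr2h (0.987), Ndufa8 (0.982), Exoc3l4 (0.977), Tmem242 (0.975) and Snrpc (0.967), against a median of 0.879.

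Other genes of the pathway were read from the same fit, palbociclib averaged over OPG-Fc. In it 1.38% of all genes were called higher and 1.45% lower. Of the 6 genes described outside the naming, Fau, the precursor of Rps30 (0.89 ± 0.19, limma adjusted p = 0.0490), and Rack1 (0.73 ± 0.16, adjusted p = 0.0498) were higher. Rps3a1 had 0.53 ± 0.13 (adjusted p = 0.0552). Of 17 translation genes with a terminal oligopyrimidine tract, 3 were higher and 0 lower, with a median of 0.42. They were the elongation factor subunit Eef1b2 (0.82 ± 0.15, adjusted p = 0.0420), the nascent chain protein Naca (0.67 ± 0.14, adjusted p = 0.0481) and the initiation factor subunit Eif3h (0.54 ± 0.11, adjusted p = 0.0463). Eef1a1 (0.39), Eef2 (0.44), Tpt1 (0.49) and Pabpc1 (0.12, and -0.03 without vehicle replicate 2) were not called. Without vehicle replicate 2, Rack1 (adjusted p = 0.0600) and Naca (adjusted p = 0.0543) did not pass.

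Of 10 tested regulators of ribosomal protein genes and their translation, limma called 0, and 4 had an unadjusted p under 0.05, 2 in each direction. Myc, a transcription factor of ribosomal protein genes, had 0.55 ± 0.18 (adjusted p = 0.0897), and Eif4ebp1, a repressor of cap-dependent initiation, 0.80 ± 0.23 (adjusted p = 0.0732). Eif4ebp2 had -0.70 ± 0.25 (adjusted p = 0.104) and Larp1 -0.33 ± 0.15 (adjusted p = 0.146). Vehicle replicate 2 had the lowest Myc and Eif4ebp1 levels of the 11 libraries, and without it the log2 fold changes were 0.28 for Myc, 0.48 for Eif4ebp1 and -0.29 for Eif4ebp2. Of 7 tested p53 and nucleolar stress genes, 0 were called and 2 had an unadjusted p under 0.05, among them the cell cycle inhibitor Cdkn1a (0.39 ± 0.16, adjusted p = 0.122, and 0.20 without vehicle replicate 2), while Mdm2 had -0.11 ± 0.15 (adjusted p = 0.604). Of the 77 mitochondrial ribosomal protein genes 3 were called higher and 0 lower, with a median of 0.27. Of the 14 proteasome genes 0 were called and 8 had an unadjusted p under 0.05, with a median of 0.36. Over all genes 1.38% were called higher in limma, and 14.2% were higher with an unadjusted p under 0.05.

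Transcript length moved with the fold changes in the whole table. Ribosomal protein transcripts are short, with a median length of 771 bases against 2615.5 bases over the tested genes, by an annotation of build GRCm38 matched on symbol. Among all other tested genes the median log2 fold change of palbociclib averaged over OPG-Fc was 0.34 for transcripts up to 600 bases and 0.24 for longer ones up to 1000 bases. It was 0.13 for those up to 2000 bases, -0.07 up to 4000 bases and -0.26 above that. The members of the first 3 classes had medians of 0.73 (22 genes), 0.66 (39 genes) and 0.64 (13 genes). With fold changes corrected for length by a spline, the members' median was 0.41 with 6 called. Without vehicle replicate 2, which leaves 1 vehicle tumour, the corrected median was 0.38. In each case 76 of 78 members were above 0. With the length correction over all 11 libraries, 0.301% of all genes were called higher. The part of transcript length in the result beyond this correction was not tested.

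**Figure D5:**
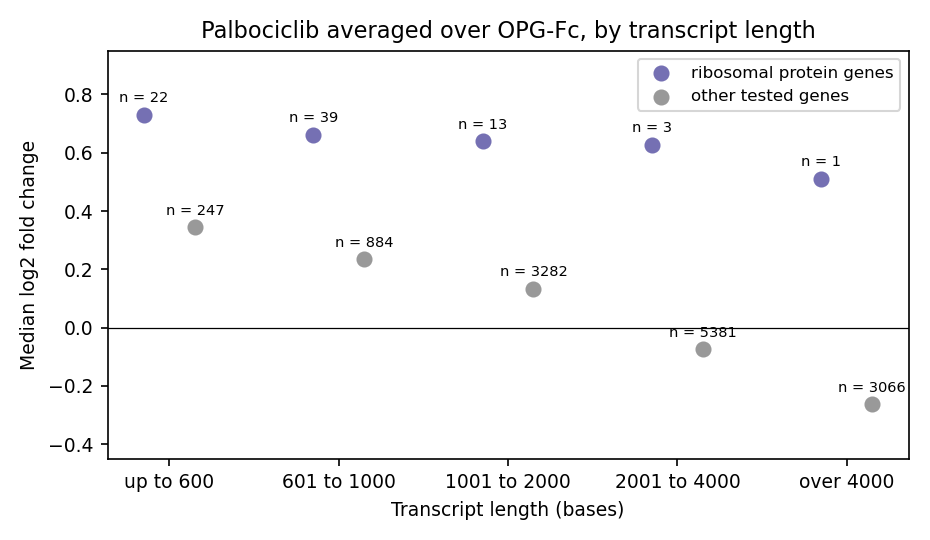
Median log2 fold change of palbociclib averaged over OPG-Fc by transcript length in bases, for ribosomal protein genes (violet) and the other tested genes (grey), with the number of genes beside each point. The medians of the other genes lie between 0.34 and -0.26 and are lower in each longer class, and the ribosomal protein genes lie above them in each class, though the last 2 classes hold only 3 and 1 of them.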

How the data were processed

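RNA from 11 tumours was sequenced after poly(A) selection. The authors deposited 1 table of FPKM per gene symbol; the tools HISAT, Bowtie2 and RSEM and the build GRCm39 (mm39) are named, per the submitters' processing notes, and roles and versions are not given in the sources used here. Among 115 short low genes the steps between values gave no whole reads, so no count test was run and no depth is known.

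Values were taken as log2(FPKM + 1), which understates changes of low genes. All genes with at least 1 FPKM in at least 2 libraries were fitted by group with limma 3.58.1 (R 4.3.3, trend in the variance prior) in 8 comparisons, with Benjamini-Hochberg adjustment over all genes, and the members were read off. The fit was also run on simulated data with independent noise in each gene. Members here rise and fall together between libraries, so that run does not bear on the number of members called. Promoter sequences are from RefSeq (GRCm38.p6), and transcript lengths from GENCODE on GRCm38, matched for 99.0% of tested genes and all 81 members; no coordinates of the authors' build are given. Figures used matplotlib 3.10.9 in Python 3.11.15.

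Named are a panel of members by role, paralogue pairs (Rpl10l and Rps4l not analysed here), the 5 largest and 5 smallest called and 3 highest and 3 lowest fold changes, the extremes of level and spread, and the 5 genes most like each tested paralogue; a few further members and pathway genes were named after their values were seen. One gene outside the naming is not reported here. Members, lists and tests were chosen with earlier results of these data known. Alternatives were 28 settings, 5 of them chosen after seeing the data: scaling, pseudocount, filter, variance prior, weights, length correction, replicate number as a block, and leaving out libraries.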

Additional observations from a re-analysis of the deposited data

How the results depend on the processing

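Under palbociclib averaged over OPG-Fc, 29 members were called, and all 29 fold changes stayed above 0 in all 28 alternatives, but each stayed called in 7 to 16 of them. The count was 4 with no filter, 8 after quantile normalization (7 higher, and Rpl10 lower), 11 with median-of-ratios scaling, 45 as TPM, 0 with library weights, 0 with libraries that share a number averaged, 6 with length correction, 14 with length correction and without vehicle replicate 2, 0 without palbociclib replicates 1 and 3 (the libraries with the most skin transcripts), 1 without vehicle replicate 2 and OPG-Fc replicate 2, and 12 without combination replicate 3 and palbociclib replicate 2. Of all genes, 0.489% were called higher with no filter, 0.765% with median-of-ratios scaling and 1.24% as TPM. After quantile normalization 0.711% were called higher and 0.696% lower. With length correction 0.301% were called higher, and 1.36% without combination replicate 3 and palbociclib replicate 2. With the replicate number as a block the count was 0. Same-numbered libraries correlated between -0.41 and 0.53. Differently numbered libraries were not compared, so this cannot tell whether the numbers pair the tumours. Leaving out 1 library gave 0 to 60. The highest came from the fit without vehicle replicate 1, in which 23.4% of all genes were called higher. For palbociclib against vehicle the count of 0 became 1 after quantile normalization and 3 without combination replicate 3 and palbociclib replicate 2, and ranged from 0 to 27 with 1 library left out. For the combination against vehicle it became 1 with a pseudocount of 0.1, 5 with a filter of 5 FPKM, 1 after quantile normalization, and 0 to 44 with 1 library left out; 23.6% and 24% of all genes were higher in the fits with 27 and 44. For the combination against OPG-Fc it became 65 with library weights, where 10.9% of all genes were called higher and 15.8% lower. It stayed 0 when a combination, palbociclib or OPG-Fc library was left out. For OPG-Fc against vehicle and for OPG-Fc averaged over palbociclib the count also stayed 0 in those fits. Fits that leave 1 vehicle tumour are not counted for these comparisons with OPG-Fc. Over all genes, the share called higher for the combination against vehicle was 0.0918% with a pseudocount of 0.1. It was 0.696% with a filter of 5 FPKM and 0.0382% after quantile normalization. For palbociclib against vehicle it was 0.0229% after quantile normalization, and 1.27% without combination replicate 3 and palbociclib replicate 2. The cause of these changes in the counts was not tested.

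Fold changes that turned negative after quantile normalization were Rpl10 -0.36, Rpl13a -0.0016, Rpl4 -0.074, Rplp1 -0.11, Rplp2 -0.20, Rps27 -0.14, Rps4x -0.16, Rps6 -0.11 and Rpsa -0.088. Rpl10 was -0.061 as TPM, -0.073 with length correction and -0.060 with it without vehicle replicate 2; Rps27 was -0.044 with length correction, and Rps27l -0.077 with it without vehicle replicate 2. Leaving out 1 library gave -0.17 to 0.20 for Rpl22l1 over Rpl22 and -0.22 to 0.030 for Rps27l over Rps27. Weighted by length, the shares were 14.2%, 12.8%, 9.04% and 8.56% in the combination, palbociclib, OPG-Fc and vehicle groups. The vehicle share was 21.1% over genes passing the filter and 22.3% without the 10 highest other genes. Precision is limited by 2 or 3 tumours per group and an unknown read depth.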
